A study of Mus musculus with 30 samples.

Results

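Open chromatin regions that are listed in round spermatids but not in the preceding pachytene spermatocytes were examined in mouse male germ cells. Peaks of 4 ATAC-seq lists were merged into regions on chromosomes 1 to 19 wherever they overlapped by at least 1 bp. The stages are PriSG-A, the primitive type A spermatogonia of very young testes; SG-A, the type A spermatogonia that follow; pacSC, spermatocytes at pachytene of meiosis; and rST, the round spermatids. The regions were chosen by the presence of a listed rST peak and the absence of a listed pacSC peak. This gave 538 regions of 113894 in all, holding 607 of the 6233 rST peaks on these chromosomes. They made up 10.9% of the 4944 merged regions with an rST peak (95% Wilson interval 10.04 to 11.8). The other 4406 rST regions also held a pacSC peak. These numbers describe the choice and are not a test of it.

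Spermatogonia are the mitotic, stem and progenitor cells of the testis. Their descendants enter meiosis, and pachytene spermatocytes are the meiotic cells in which homologous chromosomes are fully paired and recombining. Round spermatids are the haploid cells that follow, before the sperm head condenses and most histones are replaced by protamines. ATAC-seq inserts adapters into accessible DNA with the transposase Tn5, so a peak marks DNA that was open to the enzyme in the cells sampled. In a cell population, a lower signal at a region can come from fewer cells with the region open or from less opening per cell, and these cannot be told apart.

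All cells came from C57BL/6 testes. PriSG-A cells came from mice at day 6 after birth, SG-A cells from mice at day 8, and pacSC and rST cells from adult mice. The ATAC-seq samples number 3 for PriSG-A, 3 for SG-A, 2 for pacSC and 2 for rST, out of 30 samples of the study. The replicates of a stage share 1 peak list, so no value has a replicate error and no p-value between stages could be computed. Intervals cover counting error only and treat neighbouring regions as independent. On chromosomes 1 to 19 the PriSG-A list held 54413 peaks, the SG-A list 85773, the pacSC list 32902 and the rST list 6233. The read depth behind them is not known, and it can set how many peaks a list holds. Cell identity could not be checked against marker genes, because listed positions run past the last gene of several chromosomes in the annotation at hand. No gene is named and no sequence is shown for that reason.

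Of the 538 regions, 363 were listed in round spermatids alone, or 67.5% (63.4 to 71.3). This share depended on the strength required: it was 29.2% (14.9 to 49.2) of the 24 regions left at an rST −log10 q of at least 3. When rST peaks were tested directly for overlap with pacSC, without merging, 752 had none, and 48.3% (44.7 to 51.8) of these were rST-alone. That share counts peaks and the 67.5% counts regions, so they differ in unit. Counted in regions, 19 left out of the choice held no direct overlap and were joined to pacSC through a spermatogonial peak. A further 137 regions (25.5%, 21.97 to 29.3) were listed in both spermatogonial stages, 17 in PriSG-A only and 21 in SG-A only. So 175 regions, or 32.5% (28.7 to 36.6), had been listed before meiosis, were missing from the pacSC list and were listed again in rST. Among the rST regions with a pacSC peak the proportions were the other way round: 76.2% (74.9 to 77.4) were listed in a spermatogonial stage and 23.8% in none. The share listed in both spermatogonial stages depended on chromosome 1, without which it was 16.5% (13.2 to 20.3) of the regions lacking a pacSC peak and 72.2% of those holding one. Even so, the reported share and the one without chromosome 1 were both far below that of the regions with a pacSC peak.

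The spread over chromosomes was uneven, and chromosome 1 stood out. It carried 119 of the 538 regions, at 0.613 per Mb of its listed span, against 0.223 per Mb over all autosomes. Of all rST regions on chromosome 1, 23.6% (20.1 to 27.5) lacked a pacSC peak. Regions in both spermatogonial lists were the most uneven, with 68 of 137 on chromosome 1, 23 on chromosome 5 and 14 on chromosome 7. The rST-alone regions were more even: they ranged from 0.0650 per Mb on chromosome 17 to 0.251 per Mb on chromosome 18, with 0.227 per Mb on chromosome 1. Chromosomes 9, 11, 13, 17 and 18 held no region of the kind listed in both spermatogonial stages.

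**Figure D1:**
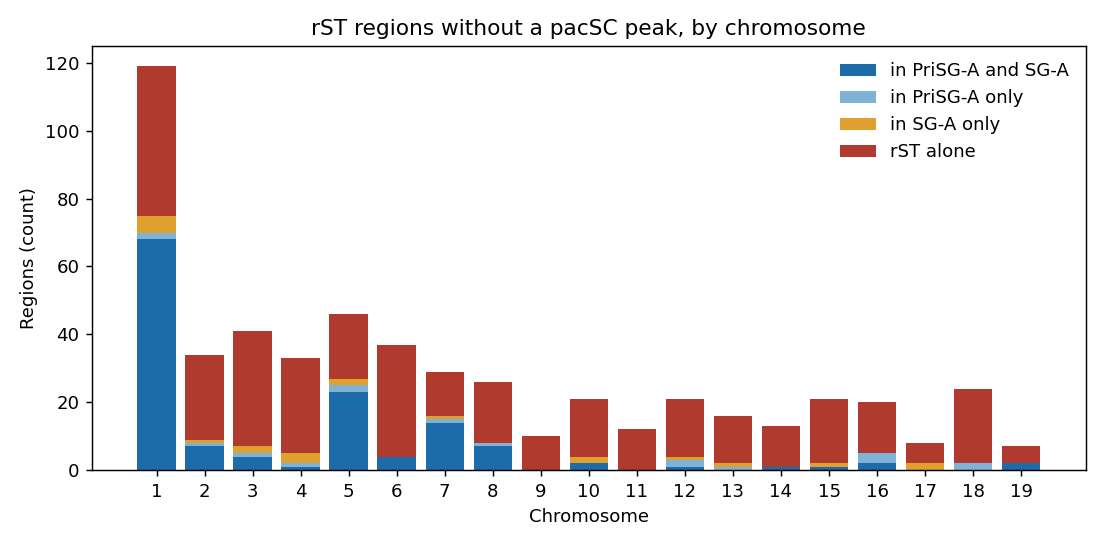
Number of rST regions without a pacSC peak on each autosome (bars, counts), stacked by the other lists that hold them. Chromosome 1 carries 119 of the 538 regions, and 68 of these were also in PriSG-A and SG-A.

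The regions were rarer towards both ends of the chromosomes than the rST regions that pacSC also listed. In the last 10 Mb of the listed span, at the distal end, lay 20 of 538 regions, or 3.72% (2.42 to 5.67), against 9.51% (8.68 to 10.4) of the rST regions with a pacSC peak. In the first 10 Mb, nearest the centromere, lay 12 regions, or 2.23% (1.28 to 3.86), against 4.83% (4.24 to 5.51) of the rST regions with a pacSC peak. For rST-alone regions the distal share was 4.68% (2.94 to 7.37), beside 6.20% (4.89 to 7.82) of rST regions held by pacSC and no spermatogonial list, and these intervals overlap. Near the centromere their share was 2.75% (1.503 to 4.996), beside 1.62% (1.01 to 2.58) of rST regions held by pacSC and no spermatogonial list, so the order was the other way round for this class, again with overlapping intervals.

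Some regions missed the pacSC list narrowly. The closest were chr10:47144766-47144837 and chr19:54563197-54563303, each with its edge 2 bp from a pacSC peak, and chr13:80406762-80406851, at 41 bp. All 3 were rST-alone and 72, 107 and 90 bp wide. Just outside the rule, chr8:31828288-31828510 overlapped a pacSC peak by 3 bp, chr3:111205187-111205385 by 5 bp and chr13:120282510-120283456 by 11 bp. In addition, 145 rST peaks that touched no pacSC peak directly were left out because a spermatogonial peak joined them to one.

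Most of the regions were not narrow misses, although near ones were frequent among the rST-alone regions. The median distance to the nearest pacSC peak was 16941 bp, with quartiles of 855 and 56584 bp. A pacSC peak lay within 1000 bp of 147 regions (27.3%, 23.7 to 31.2) and within 100000 bp of 456 (84.8%). Within 200 bp the classes differed: 56 of 363 rST-alone regions (15.4%, 12.1 to 19.5) had a pacSC peak that close, against 2 of 137 regions listed in both spermatogonial stages (1.46%, 0.401 to 5.17). Of the 60 regions with a pacSC peak within 200 bp, 56 were thus rST-alone, a class that made up 67.5% of all 538. The merging enters this contrast, since a wide spermatogonial peak that reached a pacSC peak removed its region from the choice. Median width was 915 bp for regions in both spermatogonial lists and 99 bp for rST-alone regions.

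**Figure D2:**
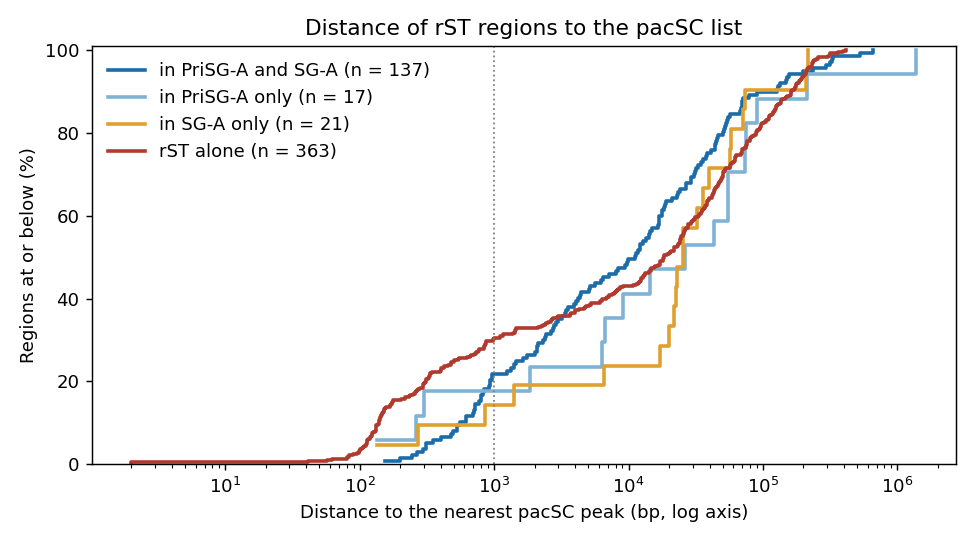
Cumulative share of regions (%) against the distance to the nearest pacSC peak (bp, log axis), with 1 line for each class and a dotted line at 1000 bp. The rST-alone line is already at 15.4% at 200 bp, where the line for regions in PriSG-A and SG-A is at 1.46%.

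The far end of this range held regions in wide gaps of the pacSC list. The farthest, chr12:23083054-23083217, was listed in PriSG-A and lay 1380756 bp from any pacSC peak and 1659261 bp from any other rST peak. The next were chr3:22629285-22629570, at 652887 bp, and chr5:75970337-75972047, at 529515 bp, both listed in PriSG-A and SG-A. The chromosome 5 region was a wide SG-A peak of 1711 bp with a −log10 q of 7.58 in SG-A and 3.64 in PriSG-A, yet its rST peak was 66 bp wide with a −log10 q of 1.90. No other peak of rST or pacSC stood within 500 kb of any of these 3.

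The rST peaks of these regions were weak and narrow. Their median −log10 q, the authors' measure of how far a peak stands above background, was 2.06 (quartiles 1.88 and 2.32), against 2.40 (2.07 and 3.02) for rST regions with a pacSC peak. None of the 538 reached a −log10 q of 5, which by 3 counts of the total allows a share of up to 0.558%, beside 2.82% of all rST peaks on these chromosomes. A −log10 q of 3 was reached by 23 regions (4.28%, 2.87 to 6.33), against 26.0% (24.7 to 27.3) of the rST regions with a pacSC peak and 20.6% of all rST peaks. Median width of the rST peak was 102 bp in regions without a pacSC peak, against 225 bp in regions with one. The median signal value, an area over the peak, was 41.5 without a pacSC peak and 95.3 with one, and the signal value per bp was 0.357 without and 0.491 with one. These rST values come from a list that chose the regions and are given as a description. The part of weak rST signal in the absence from the pacSC list was not tested.

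The narrow peaks were mainly those listed in rST alone. Their median width was 99 bp (quartiles 83 and 164.5), against 169 bp (100 and 310) for rST regions listed with pacSC and no spermatogonial stage. For regions in both spermatogonial lists the rST peak was 210 bp wide at the median, against 244 bp in the regions that also held a pacSC peak, and the quartiles of 97 and 396 bp overlapped those of 124 and 430.5 bp. Their median rST −log10 q was 2.28 without a pacSC peak and 2.46 with one.

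**Figure D3:**
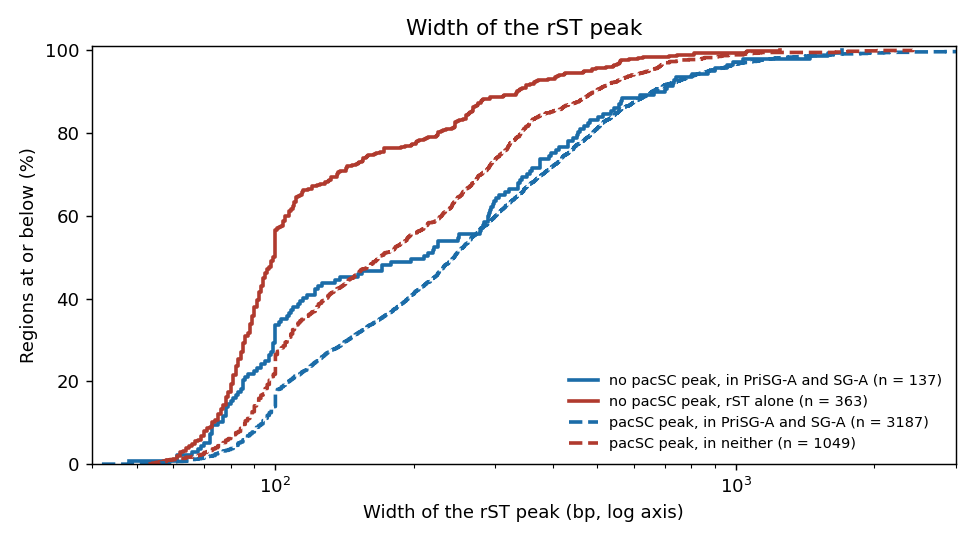
Cumulative share of rST regions (%) against the width of the rST peak (bp, log axis), for regions without a pacSC peak (solid) and with one (dashed), in both spermatogonial lists (blue) or neither (red). The rST-alone line rises earliest, with its median at 99 bp against 169 bp for the matching regions with a pacSC peak.

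Because strength and listing went together, the rST regions were divided by rST −log10 q at its quartiles into 4 bins. Regions lacking a pacSC peak made up 19.9% (17.9 to 22.2) of bin 1, the weakest, 14.3% of bin 2, 6.87% of bin 3 and 2.11% (1.44 to 3.07) of bin 4, the strongest. In bin 1, 23.3% (18.5 to 28.8) of those lacking a pacSC peak were listed in a spermatogonial stage, against 73.8% (71.1 to 76.4) of those holding one. In bin 2 the shares were 28.4% (22.1 to 35.6) without a pacSC peak and 72.4% (69.5 to 75.05) with one. The gap narrowed in bin 3, with 57.6% (47.0 to 67.6) without and 76.6% (74.1 to 79.0) with a pacSC peak. In bin 4 the intervals overlapped, at 69.2% (50.01 to 83.5) of 26 regions without a pacSC peak against 81.0% (78.6 to 83.1) with one. Among the merged regions, spermatogonial listing was thus lower at like rST strength in bins 1 to 3. The merging enters this contrast: a spermatogonial peak placed 145 rST peaks without direct pacSC overlap in regions with a pacSC peak. Counted in regions, as the shares are, 19 of those with a pacSC peak held no direct overlap of an rST and a pacSC peak. The bins were not recomputed with rST peaks tested directly.

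The regions in both spermatogonial lists stood in the upper part of those lists, but well below the rST regions that pacSC also listed. In SG-A their peaks had a median −log10 q of 4.76 and a median width of 692 bp, higher and wider than 80.7% and 80.4% of the SG-A list. The rST regions with a pacSC peak in the same class had a median −log10 q of 10.5 and a width of 1587 bp, above 96.9% and 94.4% of the list. A −log10 q of 5 in SG-A was reached by 60 of 137 (43.8%, 35.8 to 52.2), against 93.3% (92.4 to 94.2) of those with a pacSC peak, where 18.2% of all SG-A peaks reached it. In PriSG-A the shares were 11.7% (7.32 to 18.1) without a pacSC peak and 70.2% (68.5 to 71.7) with one, beside 9.40% of all PriSG-A peaks. The extent of the spermatogonial peaks entered the choice through the merging, since a wide peak can join an rST peak to a pacSC peak and so remove its region. Among regions in any spermatogonial list, 34.3% (27.7 to 41.6) reached a −log10 q of 5 in at least 1 of those lists. That share was 76.5% (52.7 to 90.4) when an rST −log10 q of at least 3 was required. When rST peaks were tested directly at 1 bp it was 57.1% (52.1 to 61.9), but of rST peaks and not of regions. The lower strength is therefore a description of the merged regions. How far its size depended on the merging cannot be read from a share of peaks.

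Among the merged regions the lower SG-A strength was also seen at like rST strength in bins 1 to 3. Among regions of bin 1 in both spermatogonial lists, a −log10 q of 5 in SG-A was reached by 47.6% (33.4 to 62.3) of 42 regions without a pacSC peak and by 91.9% (89.6 to 93.6) of 712 with one. Bin 2 gave 31.4% (18.6 to 47.98) without a pacSC peak against 92.4% with one, and bin 3 gave 34.9% (22.4 to 49.8) without against 93.0% with one. In bin 4, 14 of 17 regions without a pacSC peak reached it, or 82.4% (58.97 to 93.8), against 95.5% (93.96 to 96.6) of those with one, and there the intervals all but met. Strength is not alike in this bin, where the rST −log10 q reached 4.29 without a pacSC peak and 33.4 with one.

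**Figure D4:**
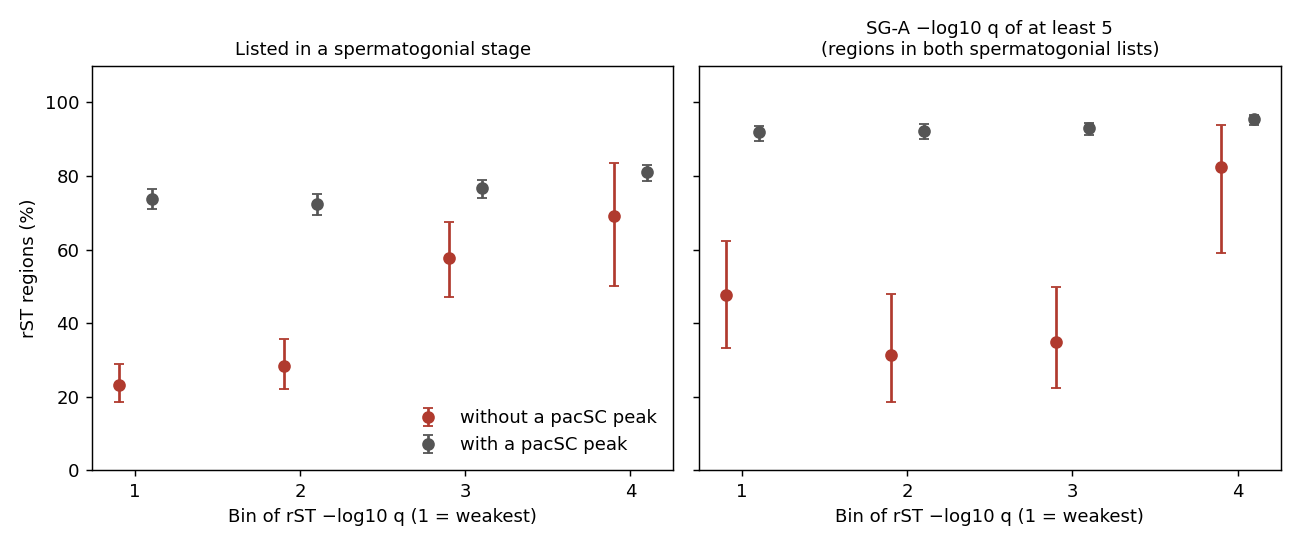
Share of rST regions (%, points with 95% Wilson intervals) by bin of rST −log10 q (1 is the weakest), without a pacSC peak (red) and with one (grey); left, listed in a spermatogonial stage, and right, SG-A −log10 q of at least 5 among regions in both spermatogonial lists. The red points lie below the grey ones with well separated intervals in bins 1 to 3 of both panels.

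Where a region held 1 peak in each list, the rST summit fell close to the spermatogonial one. The median distance between the rST and the SG-A summit was 57.5 bp over 106 regions (quartiles 16 and 151.75), against 63 bp over 2332 rST regions with a pacSC peak (17 and 151). Summits lay within 100 bp in 64.2% (54.7 to 72.6) of the regions without a pacSC peak and in 64.6% (62.7 to 66.5) of those with one, so these intervals overlap. The first share pools classes. For regions in both spermatogonial lists it was 58.1% (47.6 to 68.0) of 86 without a pacSC peak and 64.5% (62.5 to 66.5) with one. The other 20 were in SG-A only, where 18 had close summits, a share described further on as largely set by the choice. For PriSG-A the pooled medians were 58 bp without a pacSC peak and 66 bp with one. For regions in both spermatogonial lists the order was reversed, at 88.5 bp over 88 regions without a pacSC peak and 66 bp with one. Their shares within 100 bp were 52.3% (42.0 to 62.4) without and 60.5% (58.2 to 62.7) with one, and these intervals overlap. The other 17 were in PriSG-A only, with a median of 28 bp.

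The regions listed in both spermatogonial stages were strongly clustered. Of the 137, 88 (64.2%, 55.9 to 71.8) lay in 1 Mb windows that held 20 or more rST peaks, against 3.95% (3.33 to 4.69) of the matching regions with a pacSC peak. There were 8 such windows on the autosomes, and 6 of them held regions lacking a pacSC peak. Outside them, only 49 of 438 such regions (11.2%, 8.57 to 14.5) were in both spermatogonial lists. The lower SG-A strength was also present outside these windows: 55.1% (41.3 to 68.1) of the 49 reached a −log10 q of 5 there, against 93.6% (92.7 to 94.4) of the regions with a pacSC peak outside the windows.

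The largest cluster lay on chromosome 1. Between 85004234 and 85343514, a stretch of 339 kb, 37 regions lacked a pacSC peak, and 35 of them were in both spermatogonial lists. The stretch held 173 PriSG-A peaks, 192 SG-A peaks, 25 pacSC peaks and 123 rST peaks. PriSG-A peaks covered 155 kb of it, SG-A peaks 156 kb, pacSC peaks 4.26 kb and rST peaks 56.9 kb. Over all autosomes the pacSC list had 5.28 peaks for each rST peak, so the order of these lists was turned round here. Within this stretch the rST −log10 q ranged from 1.72 to 4.29, and 4.29 was the highest of all 538 regions. A window edge cuts the cluster. Just upstream, the run chr1:84983925-84991997 held 4 more such regions, with 8 PriSG-A, 5 SG-A, 0 pacSC and 8 rST peaks. Their window held 13 rST peaks, so they count as outside the dense windows. Among them, chr1:84990307-84991997 was in both spermatogonial lists, with an rST signal value of 866, a −log10 q of 3.80 and rank 350.

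A single merged region of the cluster, chr1:85313332-85325265, spanned 11934 bp and held 14 rST peaks, the most of any. Its strongest SG-A peak was 5538 bp wide with a −log10 q of 6.22, and its strongest PriSG-A peak was 7049 bp wide with a −log10 q of 5.28. The nearest pacSC peak was 29056 bp away. A longer run around it, chr1:85285727-85343514, held 14 of the regions, 38 PriSG-A peaks, 50 SG-A peaks, no pacSC peak and 39 rST peaks. The run of 57.8 kb thus held many listed peaks of spermatogonia and round spermatids and none of pachytene cells. No filter for repeated sequence was applied here, and the part of repeated sequence in this and the other clusters, and in the identical peaks described further on, was not tested.

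A neighbouring cluster on the same chromosome had the same order of lists. Between 87348065 and 87519278 it held 21 regions, all in both spermatogonial lists, over 99 PriSG-A, 109 SG-A, 17 pacSC and 44 rST peaks. The region of highest rST signal value of all 538, chr1:87517045-87519278, lay here, with a signal value of 988, a −log10 q of 3.10 and rank 297 in the rST list. Its −log10 q was 7.21 in SG-A and 5.79 in PriSG-A. A pacSC peak lay 2133 bp from it. Close by, chr1:87504017-87507639 held 4 rST peaks, the strongest with a signal value of 690, and lay 2097 bp from a pacSC peak.

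Clusters on chromosomes 5 and 7 held more pacSC peaks beside their rST peaks. On chromosome 5, the stretch from 15010577 to 15221883 held 17 regions, with 105 PriSG-A, 103 SG-A, 45 pacSC and 65 rST peaks, and the stretch from 14917783 to 14994983 held 5, with 53, 48, 25 and 30. Only a window edge divides these neighbouring stretches. On chromosome 7, the stretch from 67002887 to 67041520 held 13 regions within 38.6 kb, with 30, 33, 14 and 29 peaks in the same stage order. The regions of the chromosome 7 stretch had the highest median rST signal value of the 9 stretches plotted, 257, beside 76.9 in the first chromosome 1 cluster. Of the 5 regions of highest rST signal value in both spermatogonial lists, 2 lay there, chr7:67014605-67015763 with 758 and chr7:67030521-67031445 with 748. Each had a pacSC peak within 718 bp. Counted over the whole 1 Mb windows, rST peaks outnumbered pacSC peaks in 6 of the 9 windows. They did not in the window of the second chromosome 5 stretch, with 40 rST and 42 pacSC peaks, in that of chromosome 1 from 182000001, with 8 and 10, and in that of chromosome 17 from 29000001, with 6 and 12.

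**Figure D5:**
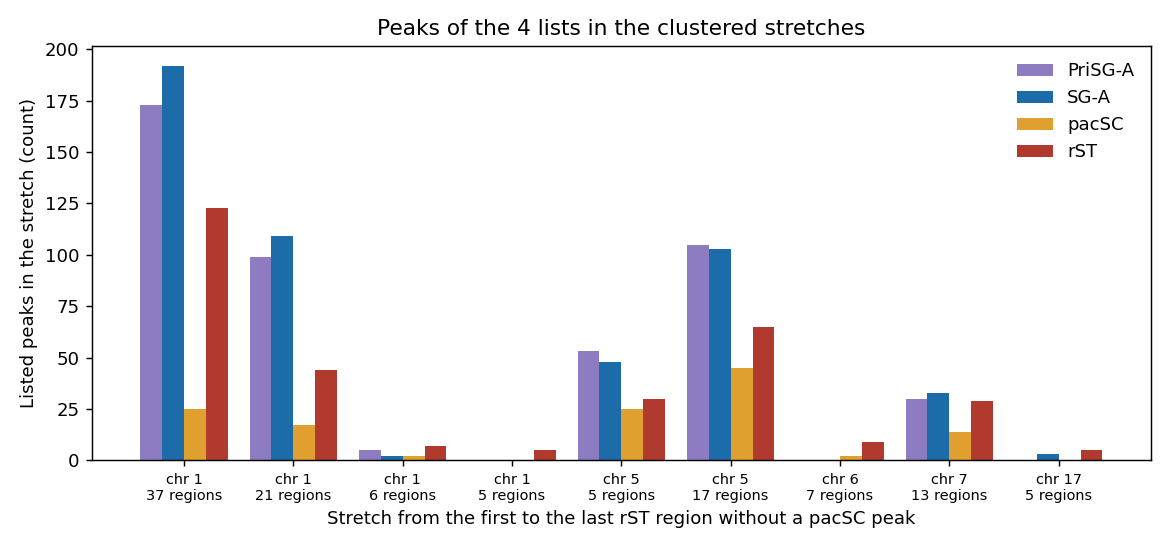
Number of listed peaks of each stage (bars, counts) in the 9 stretches that run from the first to the last rST region without a pacSC peak of a 1 Mb window with 5 or more of them. The first stretch has 123 rST and 25 pacSC peaks; because stretches are bounded by regions chosen for an rST peak and no pacSC peak, a higher rST bar is largely set by the choice.

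A smaller block on chromosome 1 held the highest SG-A signal value of the 538 regions. The region chr1:173007525-173012996 was 5472 bp wide in SG-A, with a signal value of 18716 and a −log10 q of 9.15, and reached 4.34 in PriSG-A. It held 5 rST peaks, the strongest with a −log10 q of 2.87 and a signal value of 292. Together with chr1:173001226-173005410, where the SG-A −log10 q was 8.85, and 2 smaller regions it formed a run of 13.5 kb with 9 PriSG-A, 5 SG-A, 0 pacSC and 11 rST peaks. The rST peaks thus covered parts of a wide spermatogonial block that the pacSC list left out altogether.

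Some regions away from the clusters paired a wide SG-A peak with a small rST peak. The SG-A peaks at chr3:68296756-68299976, with a −log10 q of 9.49 in SG-A, and at chr2:32730814-32732621, with 9.83, had as their strongest rST peaks ones of 91 and 90 bp with a −log10 q of 2.38 and 2.33. On chromosome 3 the nearest pacSC peak was 71060 bp away, and on chromosome 2 it was 89725 bp away. A stronger rST peak, with a −log10 q of 3.31 and a signal value of 417, lay at chr6:122565758-122566170, 128737 bp from any pacSC peak.

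Regions listed in 1 spermatogonial stage were few. The 17 in PriSG-A only had a median −log10 q of 2.10 in rST and of 2.10 in PriSG-A, higher there than 25.6% of the PriSG-A list. The 21 in SG-A only had medians of 2.02 in rST and 2.65 in SG-A, higher than 48.0% of that list. None of the 38 reached a −log10 q of 5 in its spermatogonial list, beside 9.40% of all PriSG-A peaks and 18.2% of all SG-A peaks. The matching rST regions with a pacSC peak were alike in this, with 0 of 70 in PriSG-A only and 2 of 100 in SG-A only. Summits lay within 100 bp of those in rST in 16 of 17 regions in PriSG-A only, against 33 of 63 with a pacSC peak, and in 18 of 20 in SG-A only, against 53 of 79 with one. Without a pacSC peak to join them, such peaks must overlap each other, and they were narrow, so close summits are largely set by the choice.

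Among them, the highest rST signal value in PriSG-A only was 154, at chr4:63263232-63263471, followed by 138 at chr16:50030557-50030904, 87.03 at chr2:59090951-59091116, 81.5 at chr1:113885230-113885380 and 78.4 at the remote chromosome 12 region. In SG-A only it was 236, at chr4:88910601-88910832, where the rST −log10 q of 3.53 was above the 2.98 in SG-A. Next came 134 at chr15:75933110-75935529, a wide SG-A peak of 2420 bp, and 134 at chr3:116024421-116024904. The regions at chr17:29243362-29243689 and chr5:15122063-15122817 both had 83. These peaks, the 5 of highest signal value in each class, stood at positions 1398 to 3123 of the 6459 rST peaks on all chromosomes.

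The rST-alone regions were led by a peak on chromosome 1, chr1:35171827-35172880. It was 1054 bp wide, with a signal value of 868, a −log10 q of 4.05 and rank 349 in the rST list. The nearest peak was 126622 bp away in PriSG-A, 141465 bp in SG-A and 98388 bp in pacSC. It was thus an isolated, wide opening with no listed counterpart nearby at any earlier stage. The next were chr2:106965863-106966607, with a signal value of 549 and a −log10 q of 3.17, chr15:7751353-7752601 with 537, chr7:89401525-89402334 with 514 and chr18:12610852-12611568 with 462. Of these, the chromosome 15 region lay 2213 bp from a pacSC peak and the others 17241 bp or more.

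Such strong rST-alone regions were the exception. Only 7 of 363 (1.93%, 0.937 to 3.93) reached a −log10 q of 3, against 19.8% (17.5 to 22.3) of rST regions listed with pacSC and no spermatogonial stage. The median signal value was 36.3 in rST-alone regions and 74.4 in those listed with pacSC and no spermatogonial stage, where the lowest value in the list was 20.0. No peak of any other list lay within 10000 bp of 141 of the 363 (38.8%, 34.0 to 43.9).

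A part of the rST-alone regions flanked other peaks. A pacSC peak lay within 500 bp of 90 of them (24.8%, 20.6 to 29.5), and another rST peak within 500 bp of 106 (29.2%, 24.8 to 34.1). Both held for 57. Another rST peak was that close for 23.9% (21.4 to 26.6) of rST regions listed with pacSC and no spermatogonial stage. These intervals overlap, so an rST neighbour was not particular to the rST-alone regions. Of the 90, 51 (56.7%, 46.4 to 66.4) neighboured a pacSC peak whose own region held an rST peak, against 15.2% (14.8 to 15.6) of all 29008 autosomal pacSC regions. Neither kind of neighbour was present for 224 of 363 (61.7%, 56.6 to 66.6).

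Tight runs of rST-alone regions also occurred. When regions lacking a pacSC peak were chained over gaps of up to 10 kb, 349 stood by themselves and 23 runs held 3 or more. Of these runs, 7 consisted of rST-alone regions, 26 in all, and 15 held none of them. At chr1:182172469-182174908, 5 rST-alone regions of 198 to 351 bp followed each other within 2.44 kb, with −log10 q between 1.798 and 3.00, and no peak of another list lay between them. The nearest pacSC peak was 41540 bp away. At chr1:125397354-125415565, 5 rST-alone regions of 100 to 340 bp lay within 18.2 kb, beside 2 pacSC peaks. At chr17:29239953-29245372, 5 regions lay within 5.42 kb, 3 of them rST-alone and 2 in SG-A only, and the nearest pacSC peak was 70091 bp away.

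On chromosome 6 a stretch of 24.2 kb, chr6:47090106-47114330, held 7 rST-alone regions in a pair of runs, beside 2 pacSC peaks and no spermatogonial peak. The last region of each run, chr6:47095320-47095402 and chr6:47114248-47114330, had the same width of 83 bp, the same signal value of 22.2 and the same −log10 q of 1.81, at a distance of 18928 bp. A pair with identical values was also present on chromosome 8, at chr8:57977921-57978042 and chr8:57981310-57981431, each an rST peak of 122 bp with a signal value of 72.3 and a −log10 q of 2.51, 3389 bp apart. These lay within regions listed in both spermatogonial stages. Over all rST peaks, 4 of the 607 in regions without a pacSC peak had the same width, signal value, −log10 q and summit offset as a peak elsewhere, against 4 of 5626 in regions with one.

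The surroundings of the classes differed as well. The median number of SG-A peaks within 500 kb on either side was 161 for regions in both spermatogonial lists, against 42 for the matching regions with a pacSC peak. Outside the windows dense in rST peaks this difference was gone, with 37 SG-A peaks around regions without a pacSC peak and 41 around those with one. For rST-alone regions the median was 21 (quartiles 10 and 36), against 15 (8 and 25) for rST regions listed with pacSC and no spermatogonial stage, and outside the dense windows the medians were again 21 and 15. The median number of pacSC peaks in the same surroundings was 9 around rST-alone regions and 10 around those listed with pacSC and no spermatogonial stage. The count takes in a region's own pacSC peak, which only the latter hold by the rule, so this difference is not read further.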

How the data were processed

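ATAC-seq peak lists of 4 stages were analysed, 1 per stage, in narrowPeak layout. Per the labels, replicates of a stage point to a common list. For PriSG-A the deposited name is garbled, and its list was identified through the labels and as the only one remaining. Bowtie2 2.2.5, Bowtie and SAMtools stand in the submitters' processing notes, with no role given. Not given in the sources used here are the peak caller, how replicates were combined and any correction for the Tn5 offset. The deposited columns used were the summit offset, the score, the signal value and −log10 q. Tested on the values, the deposited score is 1000 times signal value over width, capped at 1000, within a tolerance of 1, for 100% of peaks in each list, so the signal value is an area. These are the authors' values and serve here only to rank or describe peaks. Read depth is unknown.

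The notes name mm10, yet listed peaks ran past the last RefSeq gene of GRCm38 on 10 of 19 autosomes, by up to 7.20 Mb. Positions are therefore given as deposited, 1-based, without genes or sequence.

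Lists were merged in Python 3.11.15 (pandas 2.3.3, SciPy 1.17.1), and the merging and distances were checked on simulated intervals. A region's value in a list is that of its peak of highest signal value. Distances run from edge to edge. Shares have 95% Wilson intervals. Named regions are the 5 of highest rST signal value in each class, the 3 nearest to and farthest from a pacSC peak, and windows with 5 or more regions. The regions with most rST peaks or highest SG-A signal, the runs over 10 kb, the identical peaks and the isolated examples on chromosomes 2, 3, 6 and 8 were chosen after their values were seen. All of these, and the regions themselves, were chosen with earlier results of these data known.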

Additional observations from a re-analysis of the deposited data

How the results depend on the processing

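Of 56 alternative values, 34 stayed within the interval of the reported value (counts within 1.5 times) and 22 moved beyond it. The rST-alone share, reported as 67.5% of regions, was a minority of 29.2% (14.9 to 49.2) at an rST −log10 q of at least 3. With direct testing 48.3% (44.7 to 51.8) of 752 rST peaks were rST-alone, a share of peaks and not of regions. With a reciprocal overlap of 50% on rST peaks, 4494 peaks lacked a pacSC counterpart, since narrow rST peaks inside wide pacSC peaks then count. Of these 94.3% were rST-alone, 88.7% had a pacSC peak within 1000 bp, 8.46% lay in dense windows and 9.97% in the distal 10 Mb, and the median −log10 q was 2.197. Testing rST peaks directly at 1 bp gave 48.3% rST-alone, 32.2% within 1000 bp of pacSC, 32.8% in dense windows and 57.1% of those in a spermatogonial list at a −log10 q of 5 there, where the reported share is 34.3%. These, and the shares at a reciprocal overlap of 50%, are of rST peaks, where the reported ones are of regions. A region can hold several rST peaks, so the change of unit enters these differences. With rST peaks of −log10 q of at least 3 there were 24 regions: 29.2% rST-alone, 20.8% within 1000 bp of pacSC, 62.5% in dense windows, 0% distal, 76.5% at a spermatogonial −log10 q of 5, and a median −log10 q of 3.29 by construction. The rST-alone share was 81.1% without dense windows, 79.2% with each 100 kb window counted once and 76.1% without chromosome 1. The dense-window share, reported as 18.6%, was 3.54% with each 100 kb window counted once and 10.02% without chromosome 1. Leaving out chromosome 1, and the alternatives on summit distance, were chosen after seeing the data. Beyond construction, the cause was not tested. A pacSC limit of 1000 bp gives no share within 1000 bp, and leaving out dense windows gives no share in them. No paired analysis was possible because the replicates of a stage share 1 list, so none could be paired or left out. Unknown depth limits every statement on absence from a list.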

Other observations

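On chromosomes X and Y, outside the choice of regions, 3 of 124 regions with an rST peak had no pacSC peak. All 3 lay on X and were listed in SG-A: chrX:89317258-89317590, also in PriSG-A, chrX:89352678-89353016 and chrX:142693445-142693544. No rST-alone region was found on X or Y.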
